A study of Mus musculus with 8 samples.

Results

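The kinesin motor family was read in RNA-seq of staged mouse testes. Members are the genes whose symbol begins with Kif or Kifc followed by a number, without Kif3a, Kif3b and Kif17, which gave 39 of the 23983 genes measured. The libraries were made from pieces of testis of wild-type C57BL/6J mice aged 12 (d12), 16 (d16) or 24 (d24) days or adult, and each stage has 1 library. The labels name no transgene and no treatment, and the number of animals behind a library is not given in the sources used here. Values are FPKM, which are fragment counts corrected for transcript length and scaled between libraries, so that levels can be compared between genes. Where 4 values stand in a row, they follow the order d12, d16, d24 and adult. The first wave of spermatogenesis runs in step after birth, so that meiotic cells fill the testis first and haploid spermatids follow.

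Kinesins are motors that use ATP to walk along microtubules, and the kinesin-13 group takes microtubule ends apart instead. Dividing spermatogonia and spermatocytes use them to build the spindle and to cut the cell apart. Spermatids use them when the manchette, a skirt of microtubules, shapes the head, and when the flagellum is built around its axoneme. The members were therefore read in lists by known role, with 11 division (mitotic) kinesins, 6 axoneme and cilium kinesins, 2 further kinesin-13 genes, 4 C-terminal kinesins and 15 transport kinesins. Kif4-ps, an annotated pseudogene of Kif4, is the remaining member.

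Promoters from RefSeq (GRCm38.p6, 250 bases before to 50 after the start of a curated transcript) were found for 30 of the 39 members. The CHR element, through which cell cycle genes are held silent outside division, was searched as TTTGAA on both strands. It stood in 9 of the 10 division kinesins with a promoter and in 17.9% of all 32851 promoters. The division kinesin without it was Kif18a. For this and the other elements searched, members were counted as genes, and a match in any promoter of a gene was enough. The share of all was counted per promoter. Genes with several promoters thus had more chances of a match, and the member counts and the share of all are not in like units. The matches within 20 bases of a curated transcript start are shown because they are the sequence feature that most of the division kinesins share. Each line reads along the strand of the gene, 5′ to 3′, with the match nearest the start in capitals. The promoters of Kif15, Kif20b and Kif22 hold 2 matches each. In Kif20b the second directly follows the first and is left in lower case.
Kif4 (chrX:100626072-100626101, plus strand, 19 bases after the start): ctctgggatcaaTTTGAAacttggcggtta
Kif11 (chr19:37376351-37376380, plus strand, 19 bases before the start): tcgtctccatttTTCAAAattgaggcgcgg
Kif15 (chr9:122951050-122951079, plus strand, 19 bases before the start): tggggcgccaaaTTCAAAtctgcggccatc
Kif18b (chr11:102925104-102925133, minus strand, 3 bases after the start): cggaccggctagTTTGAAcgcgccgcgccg
Kif20b (chr19:34922353-34922382, plus strand, 7 bases after the start): gagccgccattgTTTGAAtttgaaaaccgg
Kif22 (chr7:127042420-127042449, minus strand, 17 bases before the start): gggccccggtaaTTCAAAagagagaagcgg
Kif23 (chr9:61946780-61946809, minus strand, 2 bases after the start): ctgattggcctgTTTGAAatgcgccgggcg

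In Kif11, Kif15 and Kif22 the element lies on the other strand and so reads TTCAAA. Kif2c held it 103 bases and Kif14 228 bases before the start. For Kif2c this is the start of the shorter of 2 curated transcripts, 3852 bases downstream of the longer one. Gene records also span predicted transcripts, with which Kif14 begins 1547 bases and the genes shown up to 47 bases further upstream. Of the other members, Kif27, Kif1a, Kif26b, Kifc1 and Kifc5b held it too. The half-site of the X-box, which is bound by the RFX factors of ciliary genes, was searched as GTTGCC on both strands. It stood in 2 of the 5 axoneme and cilium kinesins with a promoter, in 2 of the 10 division kinesins, in 8 of all 30 members and in 12.5% of all promoters. The axoneme and cilium genes that held it were Kif9 and Kif24, and they are shown because Kif9 has one of the largest rises described below.
Kif9 (chr9:110476955-110476984, plus strand, 9 bases after the start): tgcaggcttcctGTTGCCatggcgactgtg
Kif24 (chr4:41464837-41464866, minus strand, 6 bases before the start): ggcgcttgtggcGTTGCCatggggatgtgg

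With predicted transcripts the gene records begin 220 bases further upstream for Kif9 and 71 bases for Kif24. The CCAAT box (CCAAT) stood in 6 of 10 division and 3 of 5 axoneme and cilium promoters, against 37.4% of all. The cAMP response element (TGACGTCA) stood in Kif18a and Kif5c among the 30, against 1.79% of all. GGCAGTT, taken as the core of the site of the meiotic factor A-MYB, stood in none of the 30 and in 4.12% of all. These matches describe letters in a window, and no binding was measured here.

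Depth was read from the values, because a gene with 1 curated transcript takes values in equal steps, each step being 1 fragment over its length. Of the values up to 20 fragments, 91.9% to 92.6% per library lay within 0.05 of a whole number. The libraries held between 8906924 (d12) and 23683517 (d24) fragments on genes. Intervals in parentheses are exact 95% intervals from fragments and cover counting error only, not the spread between animals, for which no replicate exists. For 6 members with transcripts of unlike lengths, the shortest transcript was used, which gives the widest interval. No p-value is given. A member was counted as having risen or fallen where log2(FPKM + 0.1) changed by at least 1, which is 2-fold, and 1 FPKM was reached at either stage. Of the marker lists, the summed FPKM of 6 pachytene spermatocyte markers was 61.9, 984, 4222 and 4902. The sum of 6 round spermatid markers was 2.83, 14.7, 478 and 1165, and that of 6 spermatogonial markers was 289, 169, 86.8 and 62.1, so these sums followed the order of the labels. The 6 elongating spermatid markers did not between the youngest libraries, with 13.5 FPKM at d12 and 4.76 at d16, before 2390 and 26956 (Prm1, Tnp1 and Tnp2 fell from d12 to d16). Of the 6 spermatogonial markers, 5 fell from d12 to adult testis, where 24.2% of all genes fell, and Gfra1 did not (1.20 and 2.41 FPKM). The sum of 6 cycling cell markers was 409, 419, 390 and 363, and of these 3 fell and 3 stayed within 2-fold. In whole testis, fewer cells of a type and less RNA per cell cannot be told apart.

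Across the whole family, 36 members could be compared between d12 and adult testis. Of these, 11 rose and 7 fell. Among all 15015 genes compared, 36.6% rose and 24.2% fell, against 30.6% and 19.4% of the members, so the family as a whole stayed near the background. From d12 to d16, 5 members rose and none fell, where 11.7% of all genes rose and 4.22% fell. From d16 to d24, 9 rose and 3 fell, where 27.8% of all genes rose and 9.13% fell. From d24 to adult testis, 5 rose and none fell, where 13.4% of all genes rose and 2.08% fell. Kif12, Kif3c and Kif26b stayed under 1 FPKM at every stage and entered none of these counts.

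**Figure D1:**
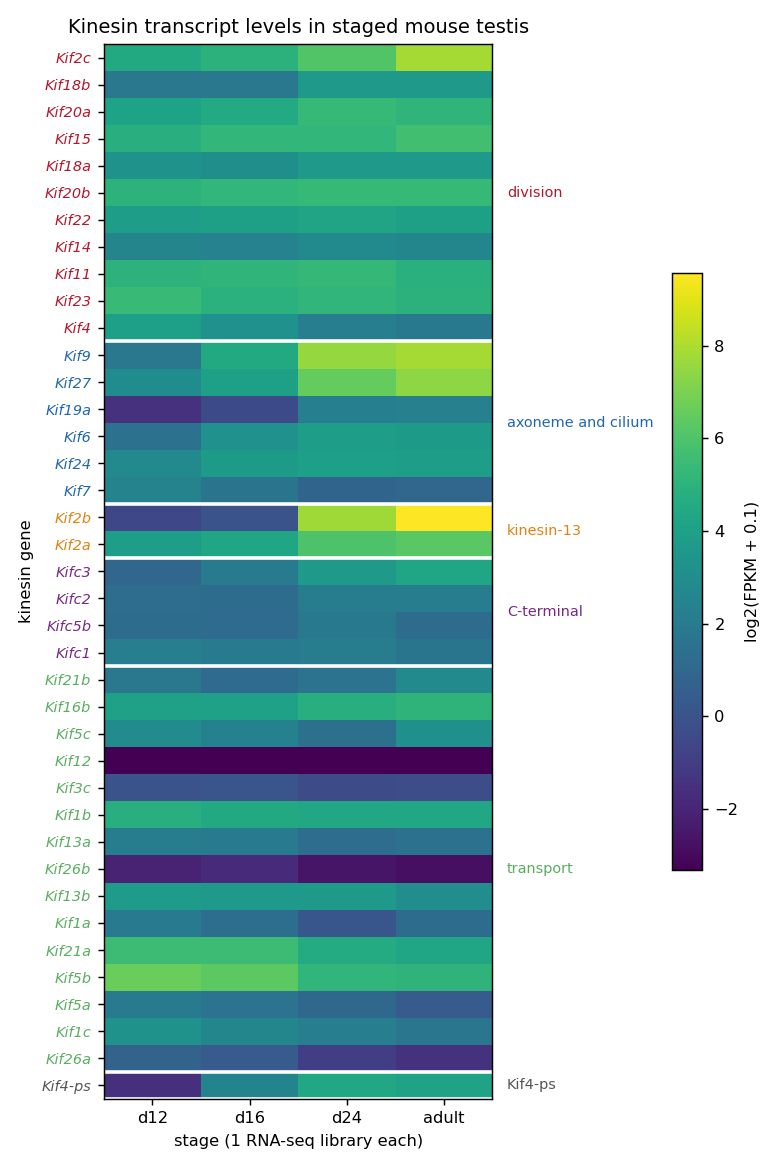
Heat map of log2(FPKM + 0.1) of the 39 kinesin genes (rows, grouped by role and ordered by their change from d12 to adult) in the 4 libraries (columns). Kif2b goes from 0.598 FPKM at d12 to 765 FPKM in adult testis, while 8 of the 11 division kinesins end within 2-fold of their d12 value. Of all 15015 genes compared, 5885 do so.

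These counts depend on how the libraries are scaled against each other. When all libraries are brought to an equal FPKM sum, the log2 change of every gene from d12 to adult testis shifts by -1.22 before the pseudocount, and with upper quartile scaling by -0.68. The share of rises among all genes that changed is 60.2% as deposited, 32.9% with equal sums and 42.6% with the upper quartile. Among the members, 9 then rose and 18 fell with equal sums, and 10 rose and 13 fell with the upper quartile. All 7 members that fell as deposited also fell under both scalings. Of the 11 that rose, Kif24 was not called under either scaling and Kif18b was not called with equal sums.

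The leading kinesin changed with age. At d12 the highest level was that of Kif5b, the heavy chain of conventional kinesin, with 97.9 FPKM or 19.1% of the summed FPKM of the family. Next stood Kif21a, which slows microtubule growth, with 45.6 FPKM, and Kif23, a motor of the cleavage furrow, with 41.5. Kif11 with 32.6 (31.2 to 34.1) and Kif20b with 32.1 (30.8 to 33.5) followed, and their counting intervals overlap. In adult testis the highest level was that of Kif2b with 765 FPKM, which is 39.8% of the family. Kif2c with 228 (222 to 234) and Kif9 with 226 (220 to 232) followed and overlap in their intervals, and Kif27 came next with 168 (165 to 172). The summed FPKM of the 39 members was 513, 544, 1084 and 1922. Without Kif2b, these sums were 513, 543, 871 and 1157.

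**Figure D2:**
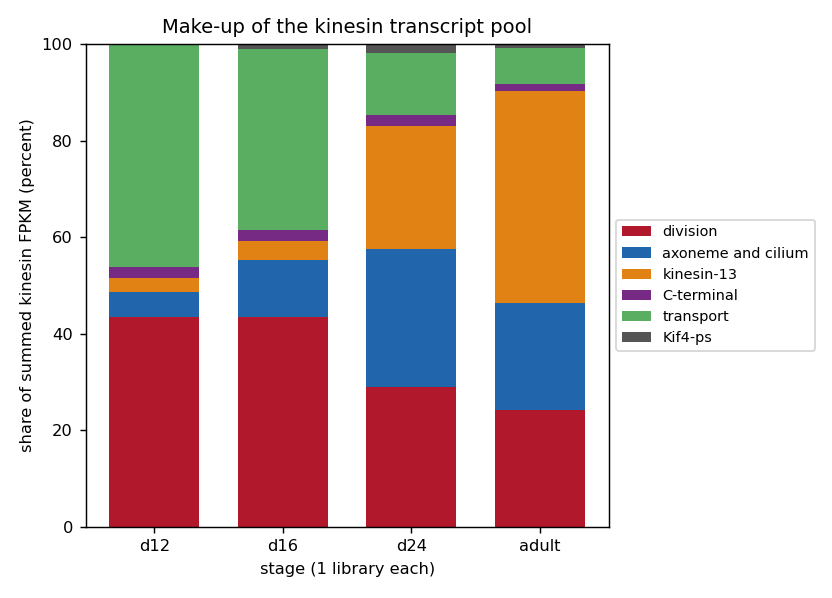
Stacked bars of the share of summed kinesin FPKM (percent, vertical axis from 0) held by each list at each stage, 1 library per bar. Transport kinesins go from 46.2% at d12 to 7.30% in adult testis, and the kinesin-13 genes Kif2a and Kif2b from 3.04% to 43.9%.

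Shares within a library do not depend on the scaling between libraries. Division kinesins held 43.4%, 43.5%, 28.9% and 24.2% of the family. Kif2b, a kinesin-13 gene known from spindles, is not in that list and held 0.116%, 0.162%, 19.6% and 39.8%. The fall of the division share, and the ratios below, depend on leaving Kif2b out. Axoneme and cilium kinesins held 5.11%, 11.9%, 28.7% and 22.3%. Their summed FPKM was 0.118, 0.274, 0.996 and 0.922 times that of the division kinesins. The adult ratio rests on single members in both lists. It was 1.81 without Kif2c, which is counted among the division kinesins, 0.435 without Kif9 and 0.560 without Kif27. At d24 it was 1.27, 0.406 and 0.705 without these genes, in the same order.

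Most division kinesins stayed within 2-fold between d12 and adult testis. Of the 11, 2 rose (Kif18b and Kif2c), 1 fell (Kif4) and 8 stayed within 2-fold. Among all 15015 genes compared, 36.6% rose, 24.2% fell and 5885 stayed within 2-fold. The median log2 change of the division kinesins was 0.32, against 0.21 for all genes compared. Equal sums turn this median to -0.90 and the upper quartile turns it to -0.36, and the median of all genes then lies at -0.98 and -0.45. With equal sums 1 division kinesin rose and 5 fell, and with the upper quartile 2 rose and 2 fell. The median of the list thus lay close to that of all genes under each scaling.

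Kif11, which pushes the spindle poles apart, was at 32.6, 34.9, 38.6 and 29.3 FPKM. Its partner in pole separation, Kif15, was at 27.3, 36.7, 37.4 and 50.4 FPKM, and the adult value was 1.85 times the d12 value (1.73 to 1.97). As deposited, Kif11 was thus highest at d24 and Kif15 in adult testis, and neither passed 2-fold. With equal sums Kif11 changed by -1.37 on the log2 scale and Kif15 by -0.33.

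The 3 motors of cytokinesis Kif20a, Kif20b and Kif23 were abundant at every stage. Kif20a had 18.0, 23.5, 40.0 and 34.9 FPKM, Kif20b had 32.1, 36.9, 39.4 and 40.0, and Kif23 had 41.5, 30.3, 36.2 and 31.6. From d12 to adult testis these were ratios of 1.94 (1.77 to 2.13) for Kif20a, 1.24 (1.17 to 1.32) for Kif20b and 0.762 (0.704 to 0.824) for Kif23. Kif14, which acts in the last steps of cell separation, was lower, at 5.76, 5.19, 7.04 and 5.93 FPKM. Exons of Kif20a overlap those of Cdc23 and Brd8 on the opposite strand. The libraries keep the strand and the mapping used it, while the strand setting of the quantification step is not given.

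Among the motors that move chromosomes, Kif22, which pushes chromosome arms, had 14.4, 16.3, 18.2 and 16.1 FPKM. Kif18a, which damps the oscillation of aligned chromosomes, had 9.72, 8.50, 12.3 and 12.1. Its relative Kif18b, which acts on astral microtubules, had 3.47 and 3.52 FPKM at d12 and d16 and 12.2 and 12.1 FPKM at d24 and in adult testis. Kif18b rose 3.47-fold from d16 to d24 (2.91 to 4.16), so the d12 and d16 values lie apart from the d24 and adult values. With equal sums its log2 change from d12 to adult testis was 0.58, under the 2-fold limit.

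Kif2c, a kinesin-13 depolymerase that corrects faulty attachments at the centromere, was the division kinesin with the largest rise. It had 22.6, 31.6, 67.0 and 228 FPKM. The adult value was 10.1 times the d12 value (9.37 to 10.9) and 3.41 times the d24 value (3.27 to 3.55). It was the only one of the 11 to rise between d24 and adult testis, and under equal sums and the upper quartile its log2 change from d12 was 2.12 and 2.66.

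**Figure D3:**
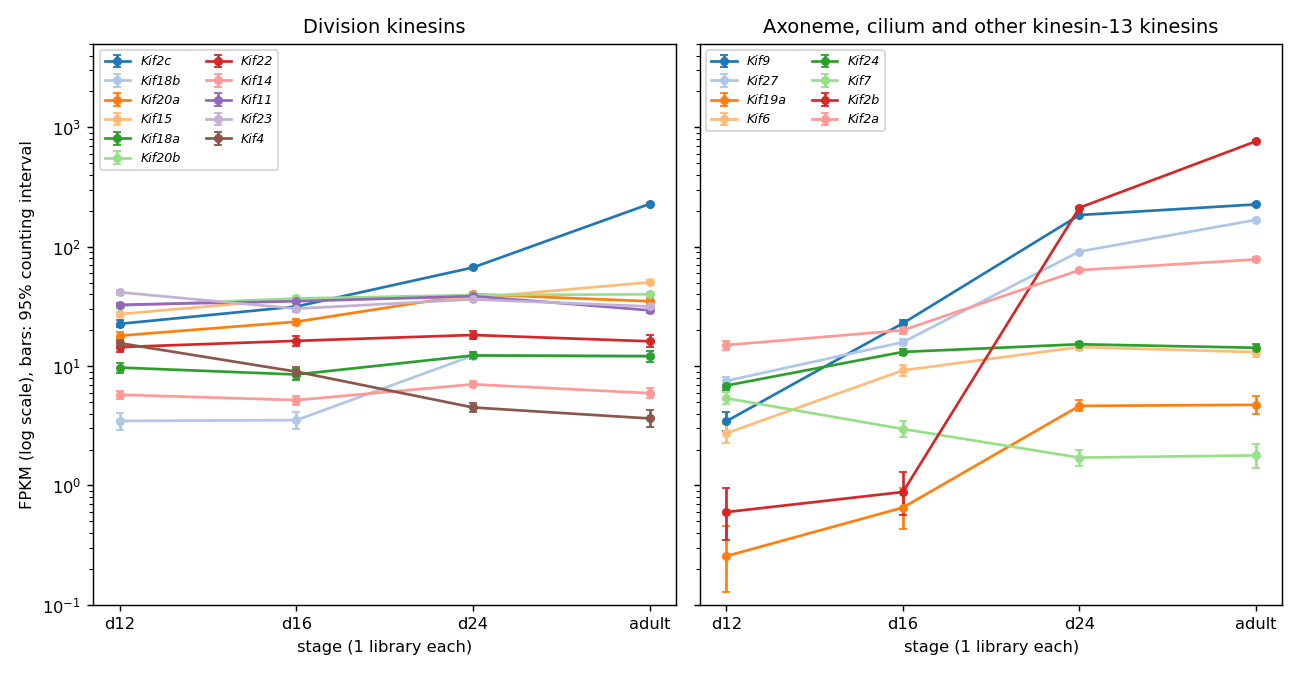
FPKM on a log axis against stage for the division kinesins (left) and for the axoneme and cilium kinesins with Kif2a and Kif2b (right). Points are single libraries and bars are 95% counting intervals. On the left, Kif2c and Kif18b end over 2-fold above their d12 value and Kif4 ends below it. The other lines end within 2-fold of d12, with Kif20a (18.0 to 34.9 FPKM) and Kif15 (27.3 to 50.4 FPKM) near that limit. On the right, all but Kif7 are higher in adult testis than at d12.

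Kif4, a chromokinesin that compacts chromosomes and sets the length of the spindle midzone, is the only member on the X chromosome (100626065 to 100727271, GRCm38). Its level was 15.6 FPKM at d12 (14.6 to 16.6) and 8.98 at d16 (8.24 to 9.78). At d24 it was 4.50 FPKM (4.10 to 4.93), and adult testis had 3.64 (3.09 to 4.27). Each value was below the one before, and from d12 to adult testis Kif4 fell 4.27-fold (3.60 to 5.10). Of 686 X-linked genes compared over the same span, 55% fell and 26.1% rose.

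Kif4-ps lies on chromosome 12 (101145609 to 101149273, GRCm38), in 1 exon, and is annotated as a transcribed pseudogene. At d12 it was read with 11 fragments, which is 0.240 FPKM (0.120 to 0.429), and at d16 with 255, which is 5.57 FPKM (4.91 to 6.30). At d24 it was read with 1679 fragments, which is 20.9 FPKM (19.9 to 21.9), and in adult testis with 555, which is 17.0 FPKM (15.6 to 18.5). It rose 23.2-fold from d12 to d16 (12.8 to 47.1) and 3.75-fold from d16 to d24 (3.28 to 4.29). The order of parent and copy turned over. Within 1 library, which no scaling changes, Kif4-ps was 0.0154, 0.620, 4.63 and 4.66 times Kif4. Together they gave 15.8, 14.5, 25.4 and 20.6 FPKM.

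**Figure D4:**
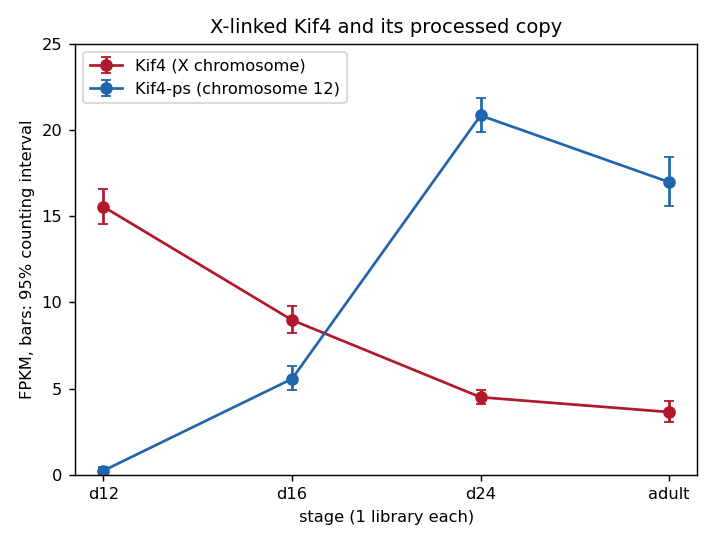
FPKM (linear axis from 0) of X-linked Kif4 and of Kif4-ps on chromosome 12 at the 4 stages, 1 library per point, with 95% counting intervals as bars. Kif4 goes down from 15.6 to 3.64 FPKM and Kif4-ps up from 0.240 to 20.9 FPKM at d24, and the lines cross between d16 and d24.

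The Kif4-ps transcript aligned over its whole length of 3665 bases to the Kif4 transcript of 4712 bases, with 79.9% identity. Of its stretches of 50 bases, the read length, 0.415% also occur in Kif4, so few reads match both genes without a mismatch. Of the 29 exon junctions of Kif4, 22 aligned without a gap to the single exon of Kif4-ps over 30 bases. Junctions 7 to 8 and 15 to 16 are shown because they make the loss of introns visible. Capitals mark the 3 bases on each side of the junction, and the copy differs from Kif4 at 2 of the 30 bases in each case.
Kif4 exons 7 and 8 (chrX:100664838-100664852 and chrX:100665673-100665687, plus strand, 820 intron bases apart): ctcgactgcttcAAGATTctctaggaggca
Kif4-ps (chr12:101146497-101146526, plus strand, unbroken): ctcgcttgcttcAAGATTctctaggaggca
Kif4 exons 15 and 16 (chrX:100694960-100694974 and chrX:100695998-100696012, plus strand, 1023 intron bases apart): tgccaaccaagcCAAGTTgagtgagcgccg
Kif4-ps (chr12:101147362-101147391, plus strand, unbroken): tgtcaaccaagcCAAGTTgagtgagcaccg

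Axoneme and cilium kinesins rose in 5 of 6 cases between d12 and adult testis, where 36.6% of all genes rose. Kif7 fell, as did 24.2% of all genes. The median log2 change of the list was 2.99, against 0.32 for the division kinesins and 0.21 for all genes compared. With equal sums and the upper quartile the median was 1.87 and 2.37. From d12 to d16, 3 of the 5 compared rose (Kif6, Kif9 and Kif27), where 11.7% of all genes rose. From d16 to d24, 3 of 6 rose (Kif9, Kif19a and Kif27), where 27.8% of all genes rose, and from d24 to adult testis none of the 6 passed 2-fold.

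Kif9, a motor of the central apparatus of the sperm flagellum, had 3.45 FPKM at d12 (2.84 to 4.11) and 22.8 at d16 (21.3 to 24.5). At d24 it had 184 FPKM (181 to 188), close to the 226 of adult testis (220 to 232). It rose 6.62-fold from d12 to d16 (5.45 to 8.10) and 8.07-fold from d16 to d24 (7.51 to 8.69). From d24 to adult testis the ratio was 1.23 (1.19 to 1.27), so nearly all of its rise lay before d24. The Kif5b level was 28.4 times that of Kif9 at d12 and 0.149 times that of Kif9 in adult testis.

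Kif27, a relative of Kif7 found in motile cilia, had 7.52, 15.9, 91.1 and 168 FPKM, a rise of 22.4-fold from d12 (20.6 to 24.4). Kif19a, which trims the length of motile cilia, was low throughout, with 0.256 FPKM at d12 from 11 fragments (0.128 to 0.458) and 0.652 FPKM at d16 from 28 (0.434 to 0.943). Its d24 and adult levels were 4.64 and 4.74 FPKM, from 350 and 145 fragments. It rose 7.11-fold from d16 to d24 (4.83 to 10.9) and the ratio from d24 to adult testis was 1.02 (0.835 to 1.24). Both genes thus had their steepest step between d16 and d24.

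Kif6, also a motor of motile cilia, had its steepest step earlier. It had 2.74, 9.21, 14.4 and 13.1 FPKM, and rose 3.36-fold from d12 to d16 (2.74 to 4.15). Kif24, which sits at centrioles and holds back the growth of cilia, had 6.88, 13.1, 15.2 and 14.2 FPKM. The adult value of Kif24 was 2.07 times the d12 value (1.84 to 2.33), just past the 2-fold limit, and with equal sums its log2 change was -0.16. Kif7, which carries Hedgehog signals at the tip of the primary cilium, went the other way, with 5.38, 2.97, 1.71 and 1.78 FPKM. Kif7 fell 3.02-fold from d12 to adult testis (2.33 to 3.97).

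Kif2b showed the largest change of the family. It encodes a kinesin-13 depolymerase known from spindles and lies in 1 exon on chromosome 11 (91575286 to 91577555, GRCm38). Its d12 level rests on 17 fragments, which is 0.598 FPKM (0.348 to 0.958), and its d16 level on 25, which is 0.881 FPKM (0.570 to 1.30). The d24 level of 212 FPKM (208 to 216) rests on 10589 fragments and the adult level of 765 FPKM (753 to 777) on 15474. Kif2b rose 241-fold from d16 to d24 (163 to 373) and 3.60-fold from d24 to adult testis (3.51 to 3.69), while the intervals at d12 and d16 overlap.

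The d12 level of Kif2b was 0.0782% of its adult level and the d16 level 0.115%. The summed round spermatid markers lay at 0.243% and 1.27% of their adult level and the elongating spermatid markers, among them Prm1, at 0.0503% and 0.0176%. A part of late cells in the first fragments of Kif2b was not tested. At d24, Kif2b was at 27.8% of its adult level and Kif2c at 29.4%, between the round spermatid markers with 41.0% and the elongating spermatid markers with 8.87%. Kif9 with 81.5% and Kif19a with 98.0% were nearer to the pachytene markers with 86.1%, and Kif27 with 54.2% was nearer to the round spermatid markers. These are percents of summed markers, and single markers departed from them. From d24 to adult testis, 5 of the 6 round spermatid markers rose, but Acr did not (93.7 and 120 FPKM). Of the 6 pachytene markers, only Pgk2 rose (157 and 389 FPKM). Of all genes, 13.4% rose over this step. The cells behind the kinesin levels were not tested.

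Kif2a, a kinesin-13 depolymerase active in many tissues, rose less. It had 15.0, 19.97, 63.7 and 78.3 FPKM, and its adult value was 5.22 times the d12 value (4.75 to 5.74). Its exons overlap those of Dimt1 on the opposite strand. Kif2a was 25.1 times as abundant as Kif2b at d12 and Kif2b was 9.77 times as abundant as Kif2a in adult testis. Kif2a, Kif2b and Kif2c together held 7.44%, 9.64%, 31.7% and 55.8% of the summed kinesin FPKM.

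**Figure D5:**
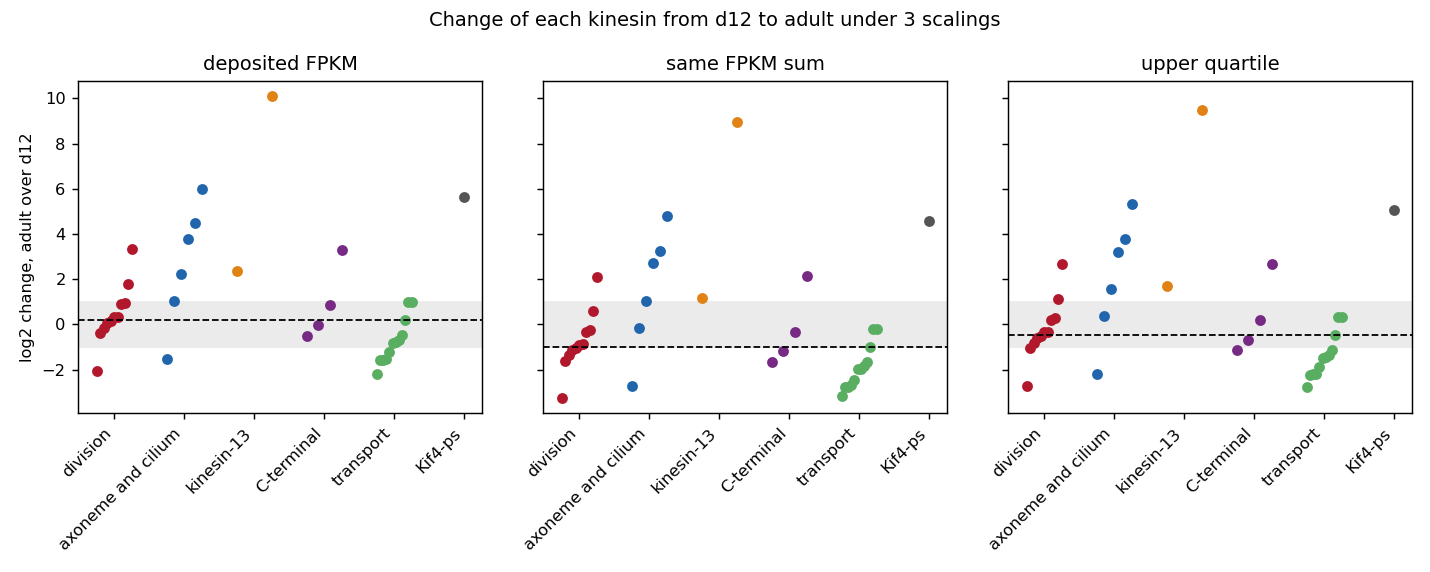
Log2 change of FPKM + 0.1 from d12 to adult testis for the 36 members compared, by list, as deposited, with equal FPKM sums and with upper quartile scaling. Each point is 1 gene from 1 library per stage, the dashed line is the median of all genes (0.21, -0.98 and -0.45), and the grey band spans 2-fold either way. The axoneme and cilium points other than Kif7 and Kif24 stay above the band under each scaling, while most division points stay near the dashed line.

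C-terminal kinesins, which walk to the minus ends of microtubules, were low apart from Kifc3. Kifc1, which focuses spindle poles and acts in the manchette and on the acrosome, had 4.47, 3.76, 4.18 and 3.14 FPKM. Kifc5b, its near copy on chromosome 17, had 2.28, 2.16, 3.66 and 2.22. Their transcripts are 96.8% identical where they align, and 46.5% of the 50-base stretches of Kifc1 also occur in Kifc5b, so the split between them is uncertain. Their sum was 6.75, 5.92, 7.83 and 5.36 FPKM.

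Kifc3, a motor of epithelial junctions and apical transport, had 1.82, 4.09, 12.4 and 18.9 FPKM, a rise of 10.4-fold from d12 (8.03 to 13.7). It rose at both steps up to d24. Kifc2 had 2.36, 2.24, 4.13 and 4.35 FPKM, and its adult value was 1.84 times the d12 value (1.40 to 2.43). Kif25, also on the list, is not among the members.

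Of the 12 transport kinesins compared from d12 to adult testis, 5 fell (Kif1c, Kif5a, Kif5b, Kif21a and Kif26a), none rose and 7 stayed within 2-fold, where 24.2% of all genes fell and 36.6% rose. Their median log2 change was -0.80, against 0.21 for all genes compared. Kif5b had 97.9, 81.3, 36.1 and 33.7 FPKM, and fell 2.90-fold (2.76 to 3.06). Kif21a had 45.6, 46.6, 24.8 and 19.3 FPKM and fell 2.36-fold (2.204 to 2.53). Both had their steepest step between d16 and d24 and were lowest in adult testis. The 6 Sertoli cell markers, from cells of the tubule wall that do not divide after puberty, went down as well. Their summed FPKM was 176 at d12 and 60.6 in adult testis. Of these, 5 fell, and Rhox5 stayed within 2-fold (20.3 and 16.7 FPKM). The 6 spermatogonial markers also went down, from a sum of 289 to 62.1, while the 6 Leydig cell markers went up from 132 to 581. The part of any of these cells in the change of the transport kinesins was not tested.

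Kif1c, which moves vesicles and integrins, had 9.80, 6.01, 4.43 and 3.25 FPKM and fell 3.02-fold (2.58 to 3.54). Kif5a, a heavy chain known from neurons, had 3.70, 2.90, 1.94 and 1.19 FPKM and fell 3.11-fold (2.24 to 4.39). Kif26a, a member without motor activity of its own, had 1.60, 1.23, 0.434 and 0.276 FPKM and fell 5.82-fold (3.51 to 10.3). All of these had a lower value at each stage than at the one before.

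A few transport kinesins dipped and came back. Kif5c, the third heavy chain, had 7.48, 5.03, 2.63 and 8.67 FPKM, and rose 3.30-fold over the last step (2.89 to 3.76). Kif1a, a carrier of vesicle precursors, had 4.02, 2.44, 1.01 and 2.23 FPKM, fell 2.41-fold from d16 to d24 (1.98 to 2.93) and rose 2.21-fold to adult testis (1.78 to 2.74). Kif21b, the relative of Kif21a, had 3.43, 2.18, 2.87 and 6.92 FPKM and rose 2.41-fold over the last step (2.15 to 2.71). Its adult value was 2.02 times the d12 value (1.77 to 2.30). With the pseudocount this is 0.99 on the log2 scale, so it was counted as within 2-fold over that span. Kif5c, Kif1a and Kif21b were the only transport kinesins to rise at any step as deposited. With equal sums, log2 changes over the last step shift by -0.48 before the pseudocount. The rises of Kif1a (1.07 on the log2 scale) and Kif21b (1.24) then lie under the 2-fold limit. With the upper quartile the shift is -0.11, and Kif1a lies under the limit.

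Kif16b, a motor of early endosomes, had 16.6, 16.6, 28.6 and 33.0 FPKM, and its adult value was 1.99 times the d12 value (1.84 to 2.15), just short of 2-fold on the scale used. Kif1b, a carrier of mitochondria and vesicles, had 28.2, 22.4, 20.4 and 20.3 FPKM. Kif13b had 13.6, 12.5, 11.9 and 7.91 FPKM, and Kif13a stayed between 2.37 and 4.37 FPKM. None of these passed 2-fold at any step. Kif3c stayed between 0.685 and 0.958 FPKM and Kif26b between 0.0454 and 0.205 FPKM. Kif12 is listed at 0 in every library, where 3 fragments would be 0.106 FPKM at d12 and 0.149 FPKM in adult testis.

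Of the 8 light chains and cargo adaptors of conventional kinesin, 2 rose and 2 fell from d12 to adult testis, or 25% each way, close to the 36.6% and 24.2% of all genes. Klc3, the light chain found on sperm tails, had 1.27, 1.67, 2.60 and 9.61 FPKM, and the adaptor Mapk8ip1 had 1.28, 1.61, 2.76 and 4.32. Klc1, the widespread light chain, had 22.3, 19.8, 10.8 and 10.3 FPKM, and Trak2, which links the motor to mitochondria, had 9.60, 6.70, 4.27 and 3.86. Klc1 and the heavy chain Kif5b thus both had their lowest value in adult testis and their steepest step between d16 and d24.

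Of the 18 spindle and midzone partners of the division kinesins, 6 rose, 1 fell (Mad2l1, of the spindle checkpoint) and 11 stayed within 2-fold from d12 to adult testis, with a median log2 change of 0.55, against 0.21 for all genes. The rises are 33.3% of the list, close to the 36.6% of all genes. Aurka, the kinase of spindle poles, had 13.4, 32.1, 129 and 124 FPKM, and Aurkc, the Aurora kinase of meiosis, had 1.38, 4.06, 21.1 and 20.1. Prc1, the midzone bundler that recruits Kif4, had 40.0, 75.1, 118 and 111 FPKM, so that it went up while Kif4 went down. Birc5, Plk1 and Nusap1 rose too. The other partner of the midzone, Racgap1, which forms a complex with Kif23, had 20.6, 19.1, 24.6 and 20.4 FPKM. Of the 18 partners, 14 were highest at d24 as deposited, as were 6 of the 11 division kinesins. Of all genes that reached 1 FPKM, 17.3% were highest there. Among these division kinesins, the adult value over the d24 value was 0.987 (0.872 to 1.12) for Kif18a, 0.989 (0.873 to 1.12) for Kif18b and 0.886 (0.774 to 1.01) for Kif22. Counting error thus does not separate d24 from adult testis for them. No intervals were taken for the partners. The highest stage also depends on scaling. Of the 36 members that reached 1 FPKM, 12 were highest at d12 as deposited, 19 with equal sums and 17 with the upper quartile. At d24 these counts were 10, 9 and 7. For the division kinesins and the partners alone, the highest stage was not recomputed under other scalings.

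All 5 central apparatus genes measured rose from d12 to d16 and again from d16 to d24, where 11.7% and 27.8% of all genes rose. Hydin had 0.354, 4.90, 23.6 and 26.5 FPKM, and Spef2 had 0.880, 9.62, 36.0 and 46.3. Spag17 had 0.477, 26.2, 124 and 169 FPKM. As with Kif9, none of the 5 passed 2-fold from d24 to adult testis.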

How the data were processed

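RNA of testis pieces from 4 stages was made into strand-specific libraries and read from both ends. Per the methods and the submitters' processing notes, the authors aligned the pairs to mouse GRCm38/mm10 (TopHat2 2.1.0 on bowtie 1.1.2, at most 1 placement per pair). They then deposited FPKM values from Cuffdiff (Cufflinks 2.2.1), run with its corrections for sequence bias and multi-mapped reads and with effective length left uncorrected. How Cuffdiff scaled the libraries is not given in the sources used here. The 4 H3K27Ac samples were not analysed here.

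From these values, ratios, sums and log2 changes with a pseudocount of 0.1 FPKM were calculated in python 3.11.15 (scipy 1.17.1, pandas 2.3.3, numpy 2.4.6). Transcript lengths and positions came from curated RefSeq transcripts of GRCm38.p6, in which all 39 members were found by symbol. Fragments were recovered from genes with 1 transcript, with the mean length where lengths differed by a factor of at most 1.1. Ratios have Clopper-Pearson intervals and levels Poisson intervals, both exact. Transcripts were aligned with blastn 2.17.0. Recovery was tested on simulated data of 14603 genes and found the value of 1 fragment in 4 of 4 libraries.

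Samples were grouped by the age in their labels. All members are named, with values for those reaching 5 FPKM and for all division, axoneme, kinesin-13 and C-terminal members, and partner genes past 2-fold may be named. Racgap1, Hydin, Spef2, Spag17, Acr, Pgk2, Gfra1 and Rhox5 were picked from their lists as examples after their values were seen, as were the motifs. The members and lists were chosen with earlier results of these data known. Of the listed genes, 4 had no row of that symbol and were not analysed here. Alternatives were pseudocounts, filters, fold limits, scalings and list make-up.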

Additional observations from a re-analysis of the deposited data

How the results depend on the processing

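No replicate was left out, since each stage has 1 library. No paired analysis was possible because each group holds 1 library and the labels number no replicates. Of 126 recomputed counts and list values, 75 changed by no more than the limit set, which for counts was a factor of 1.5. The cause of the other changes was not tested, except that stricter folds and filters keep fewer genes by construction. With equal FPKM sums, the falling members were 10 from d16 to d24, 3 from d24 to adult testis and 18 from d12 to adult testis, and 3 members rose from d24 to adult testis. Of the division kinesins 1 rose and 5 fell, with a median log2 change of -0.90. The axoneme and cilium median was 1.87, Kif24 changed by -0.16, and the highest stage was d12 for 19 members, d16 for 4 and adult for 4. With upper quartile scaling, 3 rose from d12 to d16, 8 fell from d16 to d24 and 13 fell from d12 to adult testis, 2 division kinesins fell, the medians were -0.36 and 2.37, and the highest stage was d16 for 4 members and adult for 8. As deposited it was d12 for 12, d16 for 1, d24 for 10 and adult for 13. With a pseudocount of 1 FPKM, 3 members rose from d12 to d16, 1 fell from d16 to d24 and the axoneme and cilium median was 2.05. A filter of 5 FPKM left 1 falling from d16 to d24 and a median of 2.22. At 1.5-fold, 5 members fell from d12 to d16, 14 rose and 8 fell from d16 to d24, 3 fell from d24 to adult testis and 4 division kinesins rose. At 4-fold, 2 rose from d12 to d16, 4 rose and 0 fell from d16 to d24, 0 rose from d24 to adult testis, 2 fell from d12 to adult testis, 1 division kinesin rose and 0 axoneme and cilium kinesins fell. Without Kif7 that list had 0 falling and a median of 3.76, which was also 3.76 with Kif2b added. In settings chosen after the data were seen, without Kif2c the axoneme and cilium sum was 1.27 times the division sum at d24, 1.81 times in adult testis, 0.131 times at d12 and 0.316 times at d16. In the order d12, d16, d24 and adult, these ratios were 0.102, 0.177, 0.406 and 0.435 without Kif9 and 0.0838, 0.207, 0.705 and 0.560 without Kif27.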
